A study of Bos taurus with 6 samples.

Results

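The genes described here encode the proteins of the cytosolic ribosome, the particle that translates nuclear-encoded mRNAs. They were found by name, as gene symbols made of RPL, RPS or RPLP, a number and at most a final A, X or Y. Of 6337 genes that had a probe set with their symbol alone, 59 matched, 38 of the large 60S subunit and 21 of the small 40S subunit. The current bovine gene table holds 75 symbols of this form, and the 16 others, among them RPS19, RPS27A, RPLP1 and RPS4X, are not analysed here. Each gene was represented by its probe set with the highest mean. The paralogs with an L suffix (RPL7L1, RPL26L1, RPS27L), the pseudogene symbol RPL15P, RPS4Y1 and RPS19BP1, which encodes a protein that binds RPS19, were left out.

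RNA came from white blood cells of Sanhe heifers, female cattle of a Chinese breed, and was hybridised to single-colour Affymetrix bovine arrays after biotin labelling. There were 3 arrays before cold (numbered 4, 5 and 6) and 3 after it (numbered 1, 2 and 3). Cold meant 3 hours outdoors at -32 °C and then 15 hours in a cowshed at 5 °C. The time of the later blood draw is not given, and no group without cold was sampled a second time, so cold cannot be told apart from time of sampling, transfer or handling. The study drew 3 animals from 30 heifers and sampled each at both times, but which arrays share an animal is not given, so the p-values treat the 6 arrays as separate. In blood RNA, fewer cells of a type and less RNA per cell cannot be told apart.

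A ribosome holds a single copy of nearly every one of its proteins, and their genes are among the most strongly transcribed in most cells. Their mRNAs begin with a terminal oligopyrimidine (TOP) tract, through which growth signals relayed by the mTOR kinase and the RNA-binding protein LARP1 set their translation and stability. In blood, inherited loss of a copy of any of several of these genes causes Diamond-Blackfan anaemia, a failure of red cell production.

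All arrays carried the markers of the labelled tissue. PTPRC, the pan-leukocyte phosphatase CD45, lay between 11.2 and 12.4 on the log2 intensity scale used below, and the T cell receptor subunit gene CD3E between 10.8 and 11.3. Markers of red cells and platelets were present too. HBB of red cells lay between 11.7 and 12.2, ALAS2 between 7.5 and 9.1, and PF4 of platelets between 12.4 and 12.8. Array after 2 was most like before 6, with a correlation of 0.995 over all 12763 probe sets, although the labels put them in different groups, while it correlated at 0.874 with after 3 of its own group. The counts of higher means and of groups that did not overlap are also given without after 2 and before 6. So are the changes of RPL4, RPL36A and RPS21.

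Signals of the cytosolic ribosomal protein genes were nearly level across all 6 arrays. The SD of a ribosomal protein gene over the 6 arrays had a median of 0.083 log2 units, against 0.38 over all 6337 genes, and it was below 0.2 for 53 of the 59 genes, where the share over all genes was 13%. The median SD was 0.053 for the small subunit and 0.095 for the large. RPS3A, a protein of the 40S body, had the smallest spread, with 13.79, 13.77 and 13.77 after cold and 13.80, 13.78 and 13.78 before. These 6 values overlapped between the groups and had an SD of 0.012. RPS16, RPL13A and RPS13 followed with SDs of 0.029 to 0.030. RPL13A is a 60S protein that can leave the ribosome in interferon-treated myeloid cells, where it represses translation of inflammatory mRNAs. Its values were 13.68, 13.75 and 13.72 after cold and 13.71, 13.69 and 13.75 before.

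**Figure D1:**
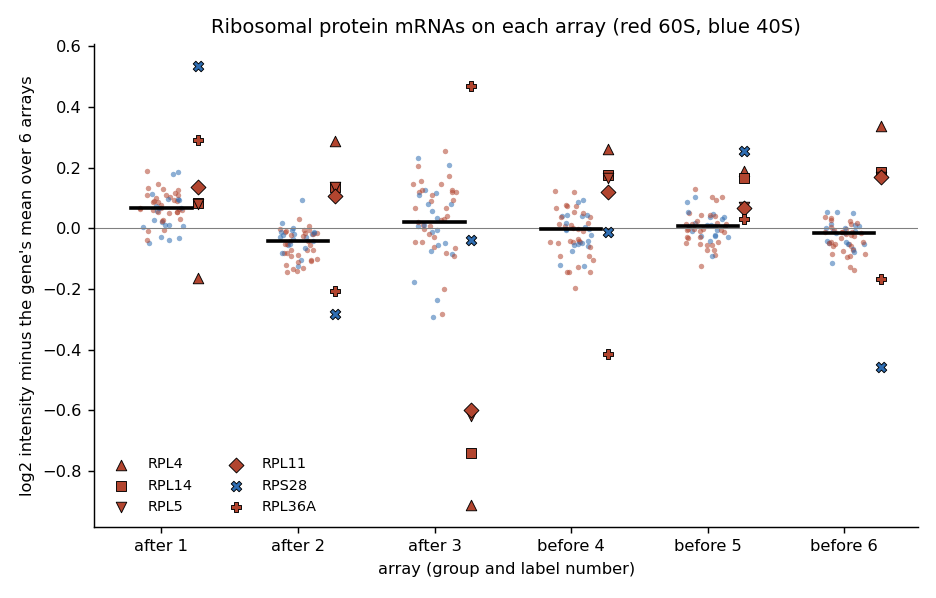
Deviation of each of the 59 ribosomal protein genes from its own mean over the 6 arrays, in log2 units, by array (red, 60S; blue, 40S; black bars, median). Most points lie within 0.2 of 0 on every array, and RPL4, RPL14, RPL5 and RPL11 lie between 0.60 and 0.91 below their means on the after 3 array.

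The arrays after and before cold did not differ past the threshold in any ribosomal protein gene. With limma, a linear model with moderated variance fitted to all 12763 probe sets, 0 of 59 passed an adjusted p of 0.05, where 0% of all probe sets passed. At an unadjusted p under 0.05 there were again 0 of the 59, against 63 of all probe sets (0.494%), which were 0.0313% higher and 0.462% lower after cold. The smallest unadjusted p, 0.156, belonged to RPL4, whose adjusted p was 1.00 in limma. The mean was higher after cold for 35 genes and lower for 24. This is 59.3% higher, near the 56.3% of all genes (43.7% were lower), and with median centring or cyclic loess normalization it was 72.9%, against 60.1% and 60.8% of all genes. The median log2 change after minus before was 0.030, against 0.046 over all genes. It was 0.064 against 0.080 with median centring and 0.063 against 0.084 with cyclic loess.

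The differences lay close to 0. A change within 0.1 log2 units of 0 was seen in 41 of the 59, where the share over all genes was 24.7%, and one within 0.2 in 54, against 52.1%. The extremes were -0.53 for RPL4 and 0.37 for RPL36A. The 60S genes had 24 higher and 14 lower means with a median of 0.034, and the 40S genes 11 and 10 with a median of 0.027. Summed over the 59 probe sets on the linear scale, intensity was 610152 to 653263 after cold and 618989 to 629403 before, so the groups overlapped.

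**Figure D2:**
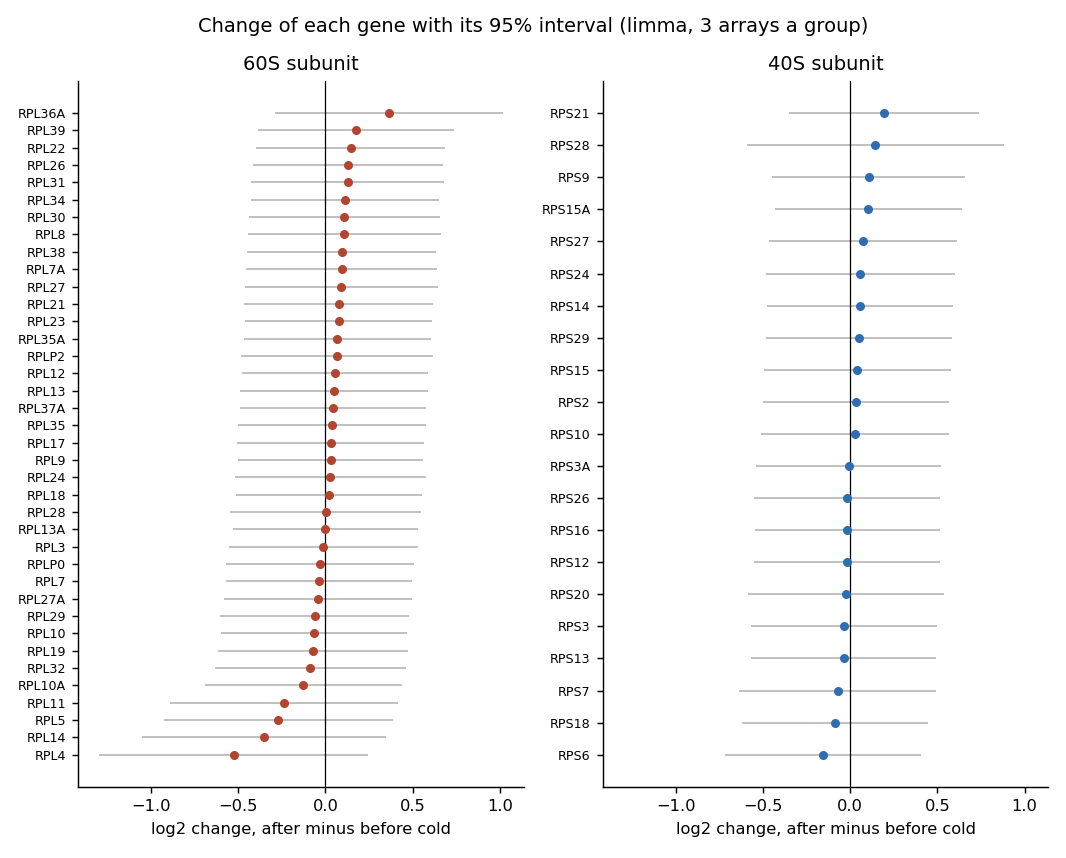
Log2 change after minus before cold of each gene (points) with its 95% interval from limma (grey bars, 3 arrays a group), 60S on the left and 40S on the right. Every interval crosses 0, and 54 of the 59 points lie within 0.2 of it.

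The intervals bound how large a difference in probe set intensity could have been missed, in a model that treats the arrays as separate. They do not bound a change in mRNA that a signal near saturation would hide, and saturation was not tested. For the steady RPS3A, a log2 change of -0.0077 ± 0.23 (SE) has a 95% interval from 1.45-fold lower to 1.44-fold higher after cold. That SE comes mostly from limma's moderation, which draws the variance of each gene towards that of all probe sets. The residual SD of the ribosomal protein genes' own values had a median of 0.081, against 0.40 over all genes, and the model SE a median of 0.24. When the variance was allowed to follow intensity, the median SE was 0.10, and 0 of the 59 still passed, with a smallest unadjusted p of 0.071 for RPL4 (limma, adjusted p = 1.00). Of the 59 intervals, that of RPL36A reached highest, to 2.03-fold higher, and that of RPL4 lowest, to 2.46-fold lower.

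The steadiness has a limit in the signal itself. The brightest probe sets of 58 of the 59 genes had means above 12, a level chosen after the data were seen, as did those of 103 other genes, and the highest value of any probe set was 14.2. The median SD was 0.083 for these 58 and 0.16 for the 103 others. For 11 genes the array held 16 further probe sets, and 14 of them had means under 11. These 14 had a median SD of 0.39, while the brightest probe sets of the same 11 genes had a median SD of 0.065. Whether bright probe sets were near saturation was not tested, since saturation flags were not used here.

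**Figure D3:**
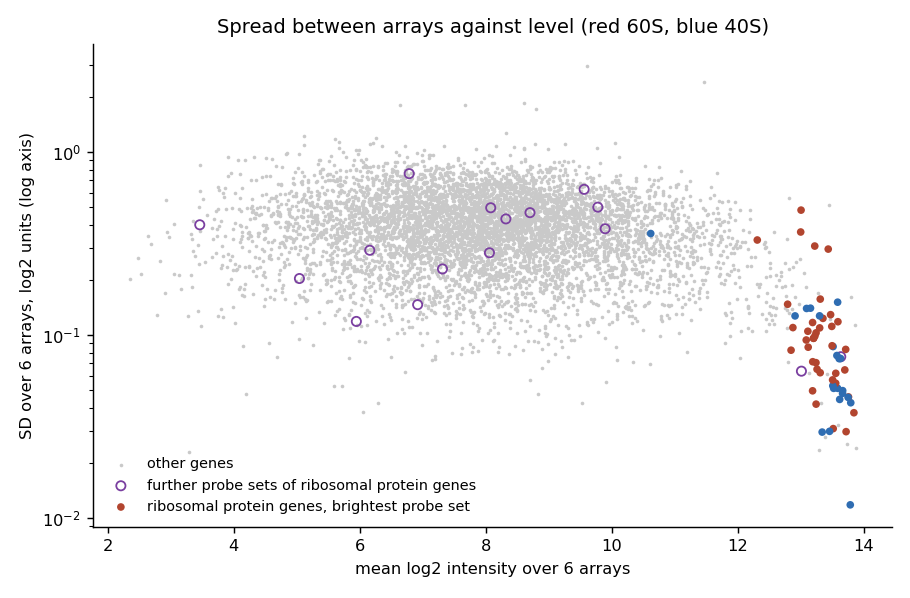
SD over the 6 arrays (log axis) against mean log2 intensity for 6337 genes by their brightest probe set (grey, other genes; red, 60S; blue, 40S) and for the 16 further probe sets of ribosomal protein genes (open purple circles). The ribosomal protein genes sit at the bright end with SDs mostly below 0.2, and 14 of their further probe sets lie at lower level and mostly larger spread.

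Further probe sets of a gene did not always repeat its brightest one. Of the 16, 7 had a change of opposite sign. RPS3, a 40S protein at the mRNA entry, differed the most between probe sets: its brightest was at -0.03, another at 0.03 and the third at -0.68 on the log2 change scale. The third had 9.11, 10.03 and 8.52 after cold and 9.73, 9.82 and 10.15 before, so that the groups overlapped and the after 3 array was lowest. For RPL32 the 3 probe sets gave -0.09, -0.15 and -0.45, for RPL9 0.03, 0.11 and -0.22, and for RPL7 the pair gave -0.04 and -0.38. Ribosomal protein genes have many processed pseudogene copies, and probe sets named for shared or alternative transcripts (11 with the suffix a and 2 with the suffix s among the 59) can measure more than a single transcript.

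The lower means after cold that were largest in size came mostly from a single array. RPL4, a 60S protein that lines the exit tunnel, was at 13.26, 13.19 and 13.34 before cold and at 12.84, 13.29 and 12.09 after it. Array after 3 was the lowest, and after 2 lay inside the range before cold. Its log2 change was -0.53 ± 0.34 (SE), -0.20 without the after 3 array and -0.80 without after 2. It was -0.76 without after 2 and before 6 together.

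RPL14, a 60S protein found in eukaryotes and archaea, was at 13.08, 13.13 and 12.25 after cold and 13.17, 13.16 and 13.18 before. All 3 values after cold lay below all 3 before, but 2 of them by less than 0.1. Its log2 change of -0.35 ± 0.30 was -0.07 without the after 3 array.

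RPL5 and RPL11 bind the 5S ribosomal RNA together, and this particle, when not built into ribosomes, inhibits MDM2 and so stabilises p53. RPL5 was at 13.30, 13.35 and 12.60 after cold and 13.38, 13.29 and 13.39 before. RPL11 was at 13.57, 13.54 and 12.83 after cold and 13.55, 13.50 and 13.60 before. In both genes only the after 3 array was low, and the groups overlapped. Their changes of -0.27 ± 0.29 and -0.24 ± 0.29 became -0.03 and 0.0019 without that array.

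RPS6, the 40S protein that S6 kinases phosphorylate downstream of mTOR, was at 13.29 on after 3 and between 13.55 and 13.68 on the other 5 arrays, a change of -0.15 ± 0.24 that was -0.05 without after 3. RPL10A, the protein of the L1 stalk where spent tRNA leaves, was lowest on after 3 and between 12.78 and 12.92 elsewhere, a change of -0.13 ± 0.25 that was -0.016 without it. RPS7 and RPL32 were also more than 0.2 log2 units below their means on that array, which makes 8 such genes. In the other direction RPL36A, RPL39, RPS21, RPS9 and RPL31 lay more than 0.2 above theirs. These 13 genes were picked by their values on after 3 and are a description of it. Over all genes, 38.7% lay that far below and 40.8% that far above their means on after 3.

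**Figure D4:**
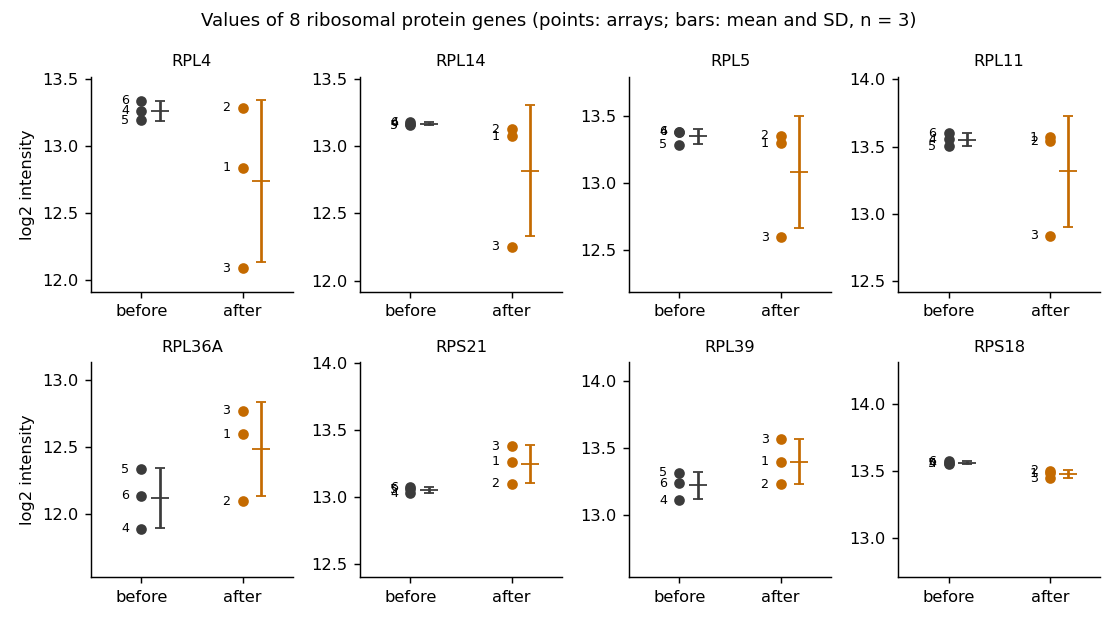
Log2 intensity of 8 ribosomal protein genes before and after cold (points, arrays with their label numbers; bars, mean and SD, n = 3). The y axes span 1.6 log2 units each; RPL4, RPL14, RPL5 and RPL11 are low on after 3 alone or most strongly there, while RPL36A, RPS21 and RPL39 have their highest value on it.

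Among genes with a higher mean after cold, RPL36A led. This protein sits near the site from which tRNA exits, and its values were 11.89, 12.34 and 12.14 before cold and 12.60, 12.10 and 12.77 after it. Array after 2 lay inside the range before cold, so the groups overlapped. The log2 change was 0.37 ± 0.28 (SE), 0.22 without the after 3 array and 0.56 without after 2. It was 0.57 without after 2 and before 6 together.

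RPS21, a small protein of the 40S body, was at 13.26, 13.10 and 13.38 after cold and 13.03, 13.06 and 13.07 before. Its groups did not overlap, although after 2 lay above the highest value before cold by less than 0.1. The log2 change was 0.19 ± 0.24, 0.13 without the after 3 array and 0.28 without after 2 and before 6 together. RPL39, a small 60S protein and part of the exit tunnel wall, differed by 0.17 ± 0.24, with values from 13.23 to 13.56 after cold and 13.11 to 13.31 before, and by 0.09 without the after 3 array. RPL22, an RNA-binding protein required for alpha beta T cell development, differed by 0.14 ± 0.24 and RPL26, a protein at the tunnel exit that also promotes p53 translation, by 0.13 ± 0.24. RPS28, a 40S head protein, differed by 0.14 ± 0.32 and by -0.09 without the after 1 array, where it was highest at 11.2 against 10.2 to 10.9 elsewhere.

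The groups did not overlap for 5 of the 59 genes, where the share over all genes was 5.02%. RPS21 and RPS15A were higher after cold (background 2.02%), and RPL14, RPS18 and RPL10 lower (background 3%). RPS18, a 40S head protein that bridges to the large subunit, was at 13.48, 13.50 and 13.44 after cold and 13.56, 13.55 and 13.57 before, a 1.06-fold difference of means with SDs of 0.028 and 0.010 log2 units. RPL10, which joins the 60S subunit last and helps to shape its catalytic site, was at 13.74, 13.75 and 13.67 after and 13.81, 13.77 and 13.78 before. For RPS15A the values were 13.60, 13.59 and 13.68 after and 13.44, 13.54 and 13.57 before. The further probe set of RPS15A had a log2 change of -0.07 and that of RPL10 one of -0.03, and in both the groups overlapped. With 3 arrays a group, 0.1 is the smallest two-sided p of an exact permutation test. Which genes had groups that did not overlap depended on how arrays were scaled. The count was 2, both lower, with median centring (background 5.52%), and 14, all higher, with cyclic loess (background 5.62%). With quantile normalization 6 were higher and 1 lower (background 5.43%).

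Grouped by position in the ribosome, the genes gave the following values. In the P stalk, which recruits elongation factors, RPLP0 differed by -0.03 ± 0.23 (SE), RPLP2 by 0.07 ± 0.24 and RPL12 by 0.05 ± 0.23. Of proteins at the rim of the exit tunnel, 6 of 7 measured were higher on average after cold, and their median change was 0.13. Their median deviation was 0.09 on after 1, -0.07 on after 2 and 0.13 on after 3. RPL4, which lines the tunnel and differed by -0.53, was not in this list. Over all genes 56.3% were higher. The 40S head had 4 of 9 higher (median -0.016) and the 40S body 7 of 12 (median 0.04). Genes of Diamond-Blackfan anaemia had 12 of 16 higher with a median of 0.05. In each of these groups 0 genes had an adjusted p under 0.05 in limma, and 0 an unadjusted one.

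The ribosome components that carry other names had like values. RPSA, a 40S protein also known as the laminin receptor, differed by -0.10 ± 0.24 (SE), RACK1, a signalling scaffold on the 40S head, by -0.03 ± 0.23, and FAU, which encodes RPS30 fused to a ubiquitin-like protein, by 0.18 ± 0.25. Without after 3 FAU differed by 0.09 and RPSA by -0.05. Of the paralogs, RPL7L1, which acts in assembly, was at 9.65, 9.59 and 9.36 before cold and 9.37, 9.40 and 8.18 after it, a change of -0.55 ± 0.37 that was -0.15 without after 3. RPS27L differed by 0.16 ± 0.27 and RPL26L1 by 0.08 ± 0.29. The median SD of these 3 paralogs was 0.27.

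mRNAs of translation factors and other proteins that share the TOP tract had larger SDs as a group, with a median of 0.27. Most lay at a lower level than the ribosomal protein genes, whose means had a median of 13.35. Of the bright ones, TPT1, at 13.55 to 13.64, had an SD of 0.032 and EEF1A1, at 13.53 to 13.93, one of 0.16. PABPC1, at 12.71 to 13.34, had one of 0.26. The part of level in the SDs of these mRNAs was not tested. Of 15 measured, 5 were higher on average after cold and 10 lower, with a median change of -0.16. On after 3 their median deviation was -0.27, against 0.02 for the ribosomal protein genes on the same array, and with median centring these were -0.14 and 0.15. EIF4A2, an RNA helicase of translation initiation, was at 11.45, 11.92 and 10.32 after cold and 11.80, 11.92 and 12.02 before, a change of -0.69 ± 0.41 (SE). EIF4B, its cofactor, differed by -0.45 ± 0.29 and EIF3H, a subunit of the initiation factor eIF3, by -0.51 ± 0.39. All 3 were lowest on after 3, and without it EIF4A2 was at -0.23, EIF4B at -0.21 and EIF3H at -0.09. In limma 0 of the 15 passed the test in either direction.

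Of 31 genes for ribosome assembly, 15 were higher on average after cold and 16 lower (median -0.018), and of 13 genes for growth control of ribosome synthesis 8 and 5 (median 0.04). NMD3, the export adaptor of the 60S subunit, differed by -0.76 ± 0.33 (SE). RIOK2 and LTV1, which act in the last steps of 40S maturation, differed by -0.84 ± 0.43 and -0.77 ± 0.43. RHEB, the activator of mTOR, differed by -0.49 ± 0.27, the mTOR partner RPTOR by 0.34 ± 0.29 and MYC, which drives transcription of ribosome genes, by 0.26 ± 0.29. These differences rest in part on after 3, where NMD3, RIOK2, LTV1 and RHEB were lowest. Without it they were -0.47 for NMD3, -0.33 for RIOK2, -0.32 for LTV1, -0.30 for RHEB, 0.24 for RPTOR and 0.10 for MYC. In the assembly list 1 gene, NMD3, had an unadjusted p under 0.05 (0.049, lower), where 0.462% of all probe sets were lower by that rule, and in the growth list 0. Over the alternatives that p of NMD3 ran from 0.012 to 0.15 in limma, among them 0.055 with an intensity trend, and 0 genes of either list had an adjusted one under 0.05.

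Genes for the proteins of the mitochondrial ribosome, a separate particle that translates the mitochondrial genome, had a median SD over the 6 arrays of 0.34. Of these 66 genes 39 were higher on average after cold, and the median change was 0.05. MRPL30 differed by -0.90 ± 0.37 (SE), MRPS35 by -0.72 ± 0.38 and MRPL3 by -0.64 ± 0.33. Without after 3, where all 3 were lowest, MRPL30 was at -0.54, MRPS35 at -0.52 and MRPL3 at -0.35. In limma 0 of the 66 had an adjusted p under 0.05 (0% of all probe sets), and 1, MRPL30, an unadjusted one (0.040, lower), where 0.462% of all probe sets were lower by that rule. Over the alternatives that p ran from 0.012 to 0.14, and it was 0.11 without after 3. On the after 2 and before 6 arrays the median deviation of the 66 was -0.31 and -0.28, while for the cytosolic genes it was -0.041 and -0.017. With median centring these were -0.42 and -0.33 for the mitochondrial and -0.15 and -0.071 for the cytosolic genes. The 2 lists were set side by side as values, and neither the difference in spread nor the part of level in it was tested.

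**Figure D5:**
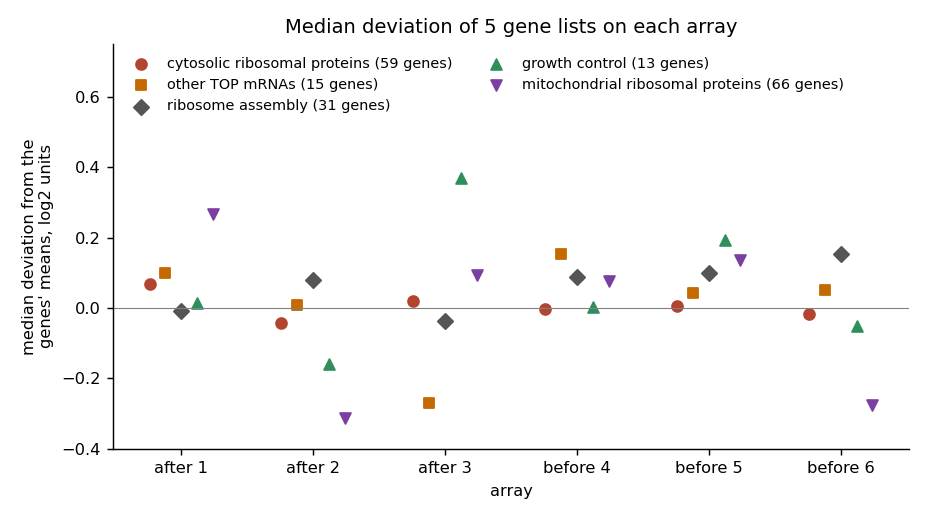
Median deviation of 5 gene lists from their genes' means on each array, in log2 units. The cytosolic ribosomal protein genes stay between -0.04 and 0.07 on all 6 arrays (from -0.15 to 0.15 with median centring), the other TOP mRNAs are at -0.27 on after 3, and the mitochondrial ribosomal protein genes are below -0.27 on after 2 and before 6.

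Pairs of arrays showed the same narrow spread. Between after 2 and after 3, the pair of a single group that differed most, the median absolute difference of a ribosomal protein gene was 0.14 log2 units against 0.77 over all genes, and 5 of the 59 differed by more than 0.5 against 69.3% of all genes. Between after 2 and before 6 it was 0.030 against 0.10. No ribosomal protein gene had its highest value on after 2, where 18.1% of all genes did, and 15 (25.4%) had their lowest there, against 16.9% of all genes. The lowest value was on before 4 for another 15 (25.4%, all genes 4.39%) and on after 3 for 15 more (25.4%, all genes 32.5%). The highest value was on after 1 for 18 (30.5%, all genes 12.2%) and on after 3 for 21 (35.6%, near the 36.4% of all genes). The median deviation of the 59 was 0.07, -0.04 and 0.02 after cold and -0.0038, 0.0069 and -0.017 before. These small shifts moved with the scaling: median centring gave -0.15 on after 2 and 0.15 on after 3, quantile normalization 0.0036 and 0.017, and cyclic loess 0.015 and 0.05.

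Without the after 2 and before 6 arrays, 38 of the 59 were higher on average after cold, with a median of 0.06, as were 55.9% of all genes. RPL4, alone of the 59, then had an unadjusted p under 0.05 (0.046; limma, adjusted p = 0.514), where 9.67% of all probe sets did. Without after 2 alone it had one of 0.028 (limma, adjusted p = 0.31), where 14.0% of all probe sets passed, and in both settings 0 of the 59 passed an adjusted p of 0.05. Groups of 2 did not overlap for 33 genes, 26 higher and 7 lower, where the share over all genes was 47.9%. Taking a matching of samples as animals changed no call either, but it changed the precision. Over the 6 possible matchings the smallest unadjusted p of a ribosomal protein gene in limma ran from 0.051 to 0.235. The median SE of the 59 ran from 0.15 to 0.40. The share of all probe sets with an unadjusted p under 0.05 ran from 0.188% to 9.15%. The SE of 0.15, the p of 0.051 and the share of 9.15% came from the matching 1-4, 2-6, 3-5.

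Markers of blood cell types also differed between arrays. Of 9 measured T cell markers 5 had a higher mean after cold, and their summed linear intensity was 15239 to 18851 after and 13345 to 21123 before. The 4 neutrophil markers measured had 3 higher and summed to 18833 to 24884 after and 16382 to 24857 before. For the 3 red cell markers, all with a higher mean, the sums were 4384 to 5173 and 3917 to 5109. On after 3, the array with low RPL4, RPL14, RPL5 and RPL11, the neutrophil sum was the highest, close to that of before 5, and it was carried by S100A8 and S100A12, while the neutrophil marker FCGR3A had its lowest value there (7.72). The T cell sum of after 3 was the lowest after cold, with CD3G at 9.86, while CD3E, at 10.91, was at its highest after cold. Of the 6 markers of NK and cytotoxic cells, 4 had a higher mean after cold. The 6 summed to 2212 on after 2 and 2175 on before 6, and to between 3562 and 4880 on the other 4 arrays. GNLY, PRF1, NKG7 and NCR1 were lowest on after 2 and before 6, but GZMB had its highest value on before 6 (8.66). KLRK1, at 5.73 on after 2 and 5.94 on before 6, was lower on after 3 (4.68) and before 5 (5.51). The 5 B cell markers had 3 higher and summed to 5097 to 6712 after and 5187 to 6165 before. The 5 monocyte markers had 2 higher, with sums of 1175 to 1945 and 1113 to 1982. Of the 3 eosinophil and basophil markers 0 were higher, with sums of 616 to 1102 and 824 to 1272, and of the 2 platelet markers 0, with 7583 to 7855 and 7722 to 10324. In each of these lists the sums of the groups overlapped, but the groups did not overlap for some single markers. The B cell markers POU2AF1 and CXCR5 were higher after cold (0.46 and 0.41). GZMB (-0.59) and the monocyte marker MSR1 (-0.66, at a low mean of 4.26 after cold) were lower. Over all genes 5.02% did not overlap. MSR1 had an unadjusted p of 0.047 in limma, where 0.462% of all probe sets were lower by that rule. The part of cell composition in these values was not tested.

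HSPE1, TMEM156, CHCHD7, DNAJC19 and NDUFA6 were the genes outside the list that correlated most with the mean deviation of the 59 over the 6 arrays. Their Pearson correlations were 0.98 to 0.96. This measure takes no account of size. The mean deviation of the 59 ran from -0.041 on after 2 to 0.075 on after 1, while HSPE1 had a range of 0.74 and an SD of 0.29. They were taken as the highest 5 of all other genes, and the arrays behind the 6 points come from 3 animals. HSPE1, a mitochondrial co-chaperonin, was at 10.73, 9.99 and 10.13 after cold and 10.07, 10.39 and 10.01 before, highest on after 1 as the 59 were on average.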

How the data were processed

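The authors deposited 1 linear intensity per probe set and array; the submitters' processing notes name GCOS and RMA, with no version. No source used here gives the genome build or a filter on probe sets. The intensities were put on the log2 scale with no further normalization, pseudocount or filter. Of 12763 probe sets, 8125 had 1 gene symbol in the platform annotation, 56 several and 4582 none. All 59 members matched a gene identifier in the RefSeq table of ARS-UCD2.0, under the same symbol.

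Groups were compared with limma 3.58.1 in R 4.3.3, two-sided, without a block, with p-values adjusted over all probe sets by Benjamini-Hochberg at 0.05. Errors are SEs of that model unless called SD. The script was tested on simulated data. The number of arrays limits the precision. The p-values measure the spread between these samples, and pairs of them share an animal.

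The members and gene lists were chosen with earlier results of these data known. Genes named with values were the 6 largest changes in each direction, those with groups that did not overlap, the 4 largest and 4 smallest SDs, fixed role genes, the 4 whose probe sets differed most, and up to 3 of each other list by p. The alternatives were 2 filters on dim probe sets, an intensity trend, robust moderation, array weights, 3 normalizations, the mean of a gene's probe sets, leaving out arrays, and 6 matchings of samples. Reading the naming rule word by word, with RPL15P, RPS19BP1 and RPS4Y1, was added after the data were seen. Sequences were not used here.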

Additional observations from a re-analysis of the deposited data

How the results depend on the processing

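No setting gave a ribosomal protein gene an adjusted p under 0.05 in limma. The count of 35 higher means ran from 30 (array weights) to 43 (median centring and cyclic loess), and it was 36 with the 3 symbols added after the data were seen. The count of 5 genes with non-overlapping groups was 2 with median centring, 14 with cyclic loess, 33 with arrays after 2 and before 6 both left out. With a single array left out it ran from 7 to 31. It was 31 without after 2 (all genes 42.8%) and 14 without after 1 (all genes 10.5%). It was 13 without before 5 (all genes 9.18%) and 9 without before 4 (all genes 10.3%). Fewer arrays make such gaps more frequent, over all genes too (6.63% to 42.8%). The median deviation of the 59 genes was -0.15 on after 2, 0.15 on after 3 and -0.071 on before 6 with median centring, and on after 2 it was 0.0036 with quantile and 0.015 with cyclic loess normalization. The cause was not tested.

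There were 967 values of 44 named genes under alternatives. Those with a filter on dim probe sets, an intensity trend, robust moderation or a matching could not change direction, since these settings leave a log2 change as it is. In the other settings 28 values had the opposite direction. With array weights, whose estimate stopped before its convergence tolerance and gave after 1 a weight of 0.0019, these were RPS28 (-0.12), RPS16 (0.0091), RPL13A (0.020) and RPL26L1 (-0.23). With median centring they were RPS3A (0.026), RPS16 (0.018), RPL13A (0.034), RPLP0 (0.0021) and RACK1 (0.0033), and with cyclic loess RPS3A (0.024), RPS16 (0.017), RPL13A (0.032), RPLP0 (0.0015) and RACK1 (0.0025). RPL13A was at 0.00011 with quantile normalization and 0.00056 with after 2 and before 6 left out. With the mean of all probe sets RPL9 was at -0.027 and RPS27L at -0.069. On leaving out each array RPS28 ran from -0.088 to 0.32, RPL13A from -0.016 to 0.019, RPL11 from -0.36 to 0.0019, RPLP0 from -0.075 to 0.021, RPS3 from -0.054 to 0.00092, RACK1 from -0.054 to 0.0042 and RPL26L1 from -0.14 to 0.20. No paired analysis was possible because the labels leave unstated which samples came from 1 animal, so each matching was tried as a block. What dim signal limits was not tested.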
